A study of Mus musculus with 6 samples.

Results

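The genes described here encode the calcitonin gene-related peptides (*Calca* and *Calcb*), the related peptide adrenomedullin (*Adm*), the receptor that both peptides use (*Calcrl*) and the 3 accessory subunits that decide which peptide the receptor binds (*Ramp1*, *Ramp2* and *Ramp3*). They were taken by gene symbol, and all 7 were found once each among the 32285 genes of the count matrices. Their counts were read in single cells from 5 autonomic ganglia of mouse pups at P5 that carried a Cre driver and a tdT reporter: the sphenopalatine ganglion (parasympathetic), the stellate, coeliac and lumbar ganglia (sympathetic) and the pelvic ganglion. Each ganglion gave 1 library, apart from the pelvic ganglion, which gave 2 (pelvic_1 and pelvic_2). The pups were of both sexes, their number per library is not used here, and the same genotype served for every ganglion, so that there is no treated or mutant group. Ganglia were dissociated whole. The protocol names no sort by the tdT reporter. The libraries held cells of vessels and connective tissue as well as neurons and glia.

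Calcitonin gene-related peptide (CGRP) is made as 2 near-identical forms, alpha from *Calca* and beta from *Calcb*. It is released from nerve endings and is best known as a strong dilator of blood vessels. *Calcrl* encodes a G protein-coupled receptor that works only in a pair with a RAMP: with RAMP1 it is the CGRP receptor, and with RAMP2 or RAMP3 it is an adrenomedullin receptor. Adrenomedullin acts on the endothelium, where it maintains the vessel wall, and bound receptors of this family mostly raise cyclic AMP.

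*Calca* and *Calcb* lie next to each other on chromosome 7, on opposite strands and 82285 bases apart (build GRCm38, the sequence of mm10, annotation GENCODE M21). *Calca* spans 114631478 to 114636357 on the minus strand, and *Calcb* spans 114718643 to 114723365 on the plus strand. The exon that encodes the mature CGRP is shown for both genes because they can be told apart in these data only where they differ. It is exon 4 of 5 in Calca-201 (chr7:114632470-114632580, minus strand) and exon 4 of 5 in Calcb-201 (chr7:114721994-114722104, plus strand). The 111 coding bases shown, 37 codons, are read 5′ to 3′ on the coding strand, and capitals mark the 5 bases at which they differ.
Calca: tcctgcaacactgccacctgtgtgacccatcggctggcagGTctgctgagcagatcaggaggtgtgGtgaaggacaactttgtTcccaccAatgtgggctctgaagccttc
Calcb: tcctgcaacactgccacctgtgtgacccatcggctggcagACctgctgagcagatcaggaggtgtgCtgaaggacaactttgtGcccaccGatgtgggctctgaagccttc
The stretches are 95.5% identical, and 3 of the 4 codons that differ encode another residue. The full transcripts differ more: of all words of 57 bases (the length of the cDNA read in the first round of sequencing) 5 were shared between transcripts of the genes, and of all words of 91 bases (the second round) 0 were shared. *Calca* also gives transcripts that encode calcitonin and lack the CGRP exon, and the counts are per gene, so that *Calca* molecules are counted here without regard to which peptide they encode.

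The other members lie elsewhere. *Adm* spans 110627661 to 110629820 on the plus strand of the same chromosome, *Calcrl* spans 84330626 to 84425411 on the minus strand of chromosome 2, and *Ramp1* spans 91179822 to 91225196 on the plus strand of chromosome 1. *Ramp2* (101246028 to 101259546) and *Ramp3* (6658521 to 6677475) are both on the plus strand of chromosome 11.

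The 6 libraries held 30777 droplets and 479078441 unique molecules (UMIs), 39353313 to 113352559 per library, and 21442 droplets passed the filters. Stellate, sphenopalatine and pelvic_1 were run in the first sequencing round with 10x chemistry version 2, and coeliac, lumbar and pelvic_2 in the second with version 3. The round therefore cannot be told apart from the ganglion outside the pelvic ganglion. Neurons numbered 854 and 360 in the pelvic libraries and 235 to 2685 in the others, with a median of 26794 to 108104 UMIs per neuron. Libraries of one round shared 9 to 94 barcodes and libraries of different rounds at most 2. Pelvic neurons were clustered without the 7 members and named from marker genes. This gave P4-like (47 and 29 neurons), P3-like (129 and 31), P2-like (248 and 94) and 2 P1-like clusters, called after their leading genes P1-like Cartpt (208 and 126) and P1-like Penk (153 and 71). A further cluster (69 and 9 neurons) met P2 markers but was led by haemoglobin and glial genes and was left unnamed. Values for a pair of numbers are always in the order pelvic_1, pelvic_2. Levels are CPM, the UMIs of a gene per 1000000 UMIs summed over the cells of a group in 1 library. Intervals are exact 95% Poisson or binomial intervals and cover counting error only.

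The P4-like neurons of the pelvic ganglion were the main site of *Calca*, the gene of alpha-CGRP. Their level was 234 CPM in pelvic_1 (213 to 256) and 621 CPM in pelvic_2 (593 to 649), a mean of 427 ± 274 (SD, n = 2). With types set neuron by neuron from marker genes the mean was 218. They held 460 of the 827 *Calca* UMIs of pelvic_1 neurons (55.6%) and 1922 of 2769 in pelvic_2 (69.4%), although they were the smallest named cluster of neurons in both libraries. The P4-like cluster had *Calca* as its leading gene in both libraries together, although the gene was left out of the clustering.

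The remaining pelvic types had low levels of *Calca*, beside 6.40 and 2.82 CPM in glia of the same libraries. P1-like Cartpt neurons were at 11.8 and 42.7 CPM, P2-like neurons at 16.6 and 24.4, and P1-like Penk neurons at 5.64 and 13.0. The noradrenergic P3-like neurons were lowest, at 2.14 (1.07 to 3.83) and 0.807 (0.166 to 2.36). The P3-like values of both libraries and the P1-like Penk value of pelvic_1 were below the level of glia. Depth differed, at medians of 39534 and 117667 UMIs in P3-like neurons and 44358 in P1-like Penk neurons of pelvic_1. In glia the medians were 4126 and 11968. These low values are therefore read neither as expression nor as its absence, and the part of background molecules was not tested. P4-like neurons stood above P2-like neurons by 14.1-fold (11.8 to 16.7) and 25.4-fold (22.0 to 29.4). Between P2-like and P1-like Cartpt neurons the order was reversed from one library to the other, so that these types are not separated beyond the spread between libraries. Within each library P1-like Cartpt was above P1-like Penk with separate intervals (9.57 to 14.5 against 4.01 to 7.71, and 38.9 to 46.8 against 10.8 to 15.5), while the ranges over both libraries overlapped. The pelvic_2 value of P1-like Cartpt rests in part on 1 neuron that held 93 of its 462 UMIs. The unnamed cluster was at 16.7 and 55.2 CPM.

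Outside the pelvic ganglion only the lumbar neurons carried *Calca* above 1 CPM, at 11.7 (10.9 to 12.5). Stellate neurons were at 0.700 (0.527 to 0.911), coeliac neurons at 0.393 (0.158 to 0.810) and sphenopalatine neurons at 0.309 (0.196 to 0.464). The interval of the coeliac value overlaps those of its neighbours on both sides. Within each round pelvic neurons were highest, at 23.4 CPM in the first and 76.4 in the second. These differences were not tested, since each of the other ganglia is 1 library.

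**Figure D1:**
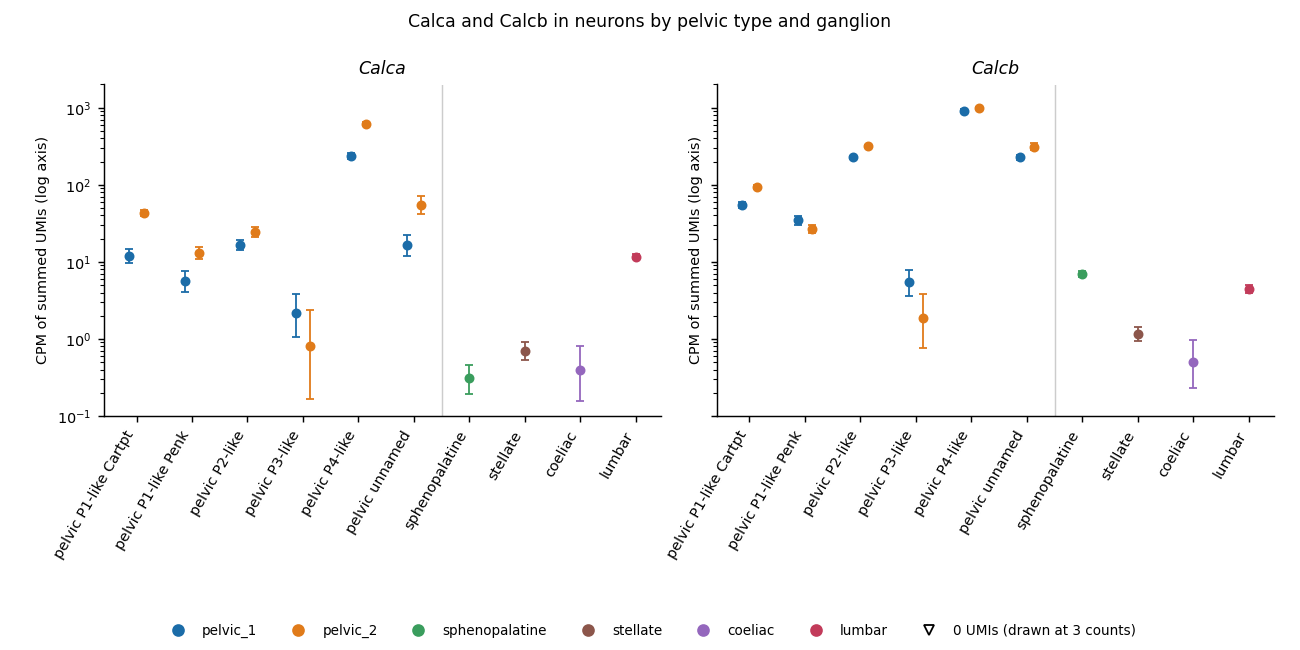
*Calca* (left) and *Calcb* (right) in neurons. The vertical axis is the CPM of summed UMIs on a log scale, points are libraries and bars are exact 95% Poisson intervals, with pelvic types left of the grey line and the other ganglia right of it. P4-like neurons are the highest group for both genes in both pelvic libraries, and P3-like neurons are the lowest pelvic type.

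*Calca* was detected in most but not all P4-like neurons. A *Calca* UMI was found in 36 of 47 P4-like neurons of pelvic_1 (76.6%, 62.0 to 87.7) and in 29 of 29 of pelvic_2 (88.1 to 100). After each cell was thinned to 4000 UMIs the shares were 39.1% (1 shallower neuron left out) and 69.0%. The P2-like neurons had a UMI in 33.5% and 69.1%, P1-like Cartpt in 24.5% and 44.4%, P1-like Penk in 17.0% and 42.3%, and P3-like in 8.53% and 9.68%. In glial cells of the same libraries, which serve as the background, the shares were 2.19% and 3.54%, at median depths of 4126 and 11968 UMIs against 39765 and 108104 in the neurons. Shares in stellate (1.27%), sphenopalatine (1.13%) and coeliac (2.98%) neurons were compared with 0.821%, 0.910% and 1.01% in their glia at several times lower depth, and are read as background.

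Single P4-like neurons differed widely from each other. Their median was 5 *Calca* UMIs (highest 77) in pelvic_1 and 38 (highest 374) in pelvic_2, which is 1.10 and 3.59 per 10000 UMIs of a neuron. The tenth of the neurons with the most *Calca* held 52.0% and 41.3% of the molecules of the cluster.

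**Figure D2:**
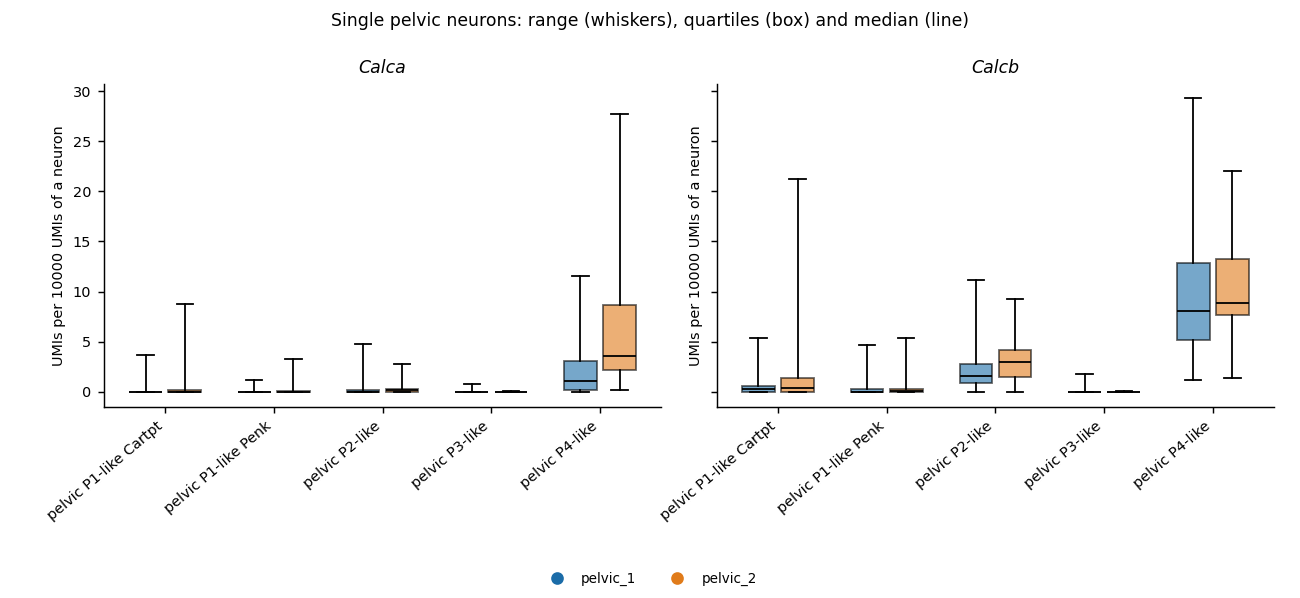
*Calca* (left) and *Calcb* (right) in single pelvic neurons, as UMIs per 10000 UMIs of the neuron, by cluster and library. Boxes are quartiles, lines inside them medians and whiskers the full range. *Calcb* is high throughout the P4-like cluster, while *Calca* has low medians (1.10 and 3.59) and a long upper range.

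Markers of other cells were read in the P4-like cluster. The summed level of 6 glial markers was 363 and 306 CPM, against 121 and 67.7 in the other pelvic neurons, and none of the 6 was at 0. Glia themselves were at 6.40 and 2.82 CPM of *Calca* and at 39.5 and 4.23 of *Calcb*. The part of glial molecules in the *Calca* and *Calcb* values of P4-like neurons was not tested. The summed level of 7 sensory neuron markers was 15.3 and 17.8 CPM, below the 32.2 and 48.5 of the other pelvic neurons, and 3 and 5 of the 7 were at 0. The summed level of 5 fibroblast markers was 77.3 and 145 CPM, against 121 and 60.9 in the other pelvic neurons, with 1 and 0 of the 5 at 0, and that of 6 endothelial markers 36.1 and 18.1 against 34.8 and 23.8, with 1 and 3 at 0. In pelvic_1, 76 further droplets lay just below the neuron threshold and were led by P4 markers such as *Aldh1a2*. They held 78.7 CPM of *Calca* and 480 of *Calcb* and were not counted as neurons.

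*Calcb*, the gene of beta-CGRP, was higher than *Calca* in the pelvic ganglion and spread over more of its neurons. P4-like neurons were again highest, at 919 (877 to 963) and 984 CPM, a mean of 952 ± 46.0 (SD, n = 2). This level depends on how the type is drawn, and was 543 with types set neuron by neuron from marker genes. P2-like neurons followed at 228 (219 to 237) and 320 (308 to 333). P1-like Cartpt neurons were at 54.8 and 93.4 CPM, P1-like Penk neurons at 34.6 and 26.9, and P3-like neurons at 5.45 and 1.88. For each neighbouring pair in this order the range over both libraries did not overlap. The P3-like values, and the P1-like Penk value of pelvic_1, were below the level of glia in the same library.

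The difference between P4-like and P2-like neurons was smaller for *Calcb* than for *Calca*. P4-like neurons stood above P2-like neurons by 4.04-fold (3.80 to 4.29) and 3.07-fold (2.92 to 3.24). P2-like neurons stood above P1-like Cartpt neurons by 4.16-fold and 3.43-fold. Since the P2-like neurons were more numerous, they held 44.6% and 36.3% of all neuronal *Calcb* UMIs, against 32.5% and 41.7% in P4-like neurons. The molecules of this gene were thus divided mainly between these types, while those of *Calca* were mainly in P4-like neurons. The unnamed cluster was at 227 and 313 CPM, near the P2-like level.

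Every P4-like neuron held *Calcb*: 47 of 47 and 29 of 29. The median was 31 UMIs (highest 112) and 103 UMIs (highest 201). Among P2-like neurons of pelvic_2 the share was 91.5%, or 63.2% after thinning to 4000 UMIs, at which P4-like neurons were at 82.8%. Glia had a UMI in 8.81% and 4.78%.

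In pelvic_1 the other cell classes held *Calcb* too. Glia were at 39.5 CPM, endothelial cells at 21.9, mural cells at 18.0 and fibroblasts at 9.53, while in pelvic_2 the same classes were between 3.05 and 4.23. The P1-like Penk neurons of pelvic_1 (34.6) were no higher than its glia, and its P3-like neurons (5.45) were lower. Low neuronal values of *Calcb* in that library are therefore not read as a level of the neurons. Depth differed, at medians of 44358 UMIs in P1-like Penk neurons and 4126 in glia. A *Calcb* UMI was found in 48.4% of the former and 8.81% of the latter. The part of background molecules in each was not tested.

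Outside the pelvic ganglion *Calcb* was low. Sphenopalatine neurons were at 6.92 CPM (6.33 to 7.54), lumbar neurons at 4.44, stellate neurons at 1.16 and coeliac neurons at 0.506. In the sphenopalatine ganglion 254 of 1857 neurons (13.7%) had a UMI against 0.520% of glia, at median depths of 38250 and 4694, and 1.68% of neurons did after thinning. This low *Calcb* level came with next to no *Calca* (0.309 CPM).

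Most pelvic neurons with *Calca* also held *Calcb*. In the P4-like cluster this follows from the detection of *Calcb* in every neuron. Of all pelvic neurons with *Calca*, 196 of 227 (86.3%) and 171 of 190 (90.0%) also held *Calcb*. Of those with *Calcb* 35.3% and 63.1% held *Calca*. Among P2-like neurons with *Calca*, 82 of 83 and 62 of 65 also held *Calcb*. With or without *Calca*, *Calcb* was found in 65.0% and 75.3% of all pelvic neurons and in 96.0% and 91.5% of P2-like neurons. The P2-like counts are thus near the share in the whole type. Depth enters all of these counts, so that the shares are a description, and a link between the genes was not tested.

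In the lumbar ganglion *Calca* was held by few neurons. Of 920 neurons 63 had a UMI (6.85%, against 4.18% of glia), and the 30 with 5 UMIs or more held 94.3% of the 840 molecules. The highest neuron held 164. Of these 30 neurons, 17 were cholinergic by their transmitter genes (*Chat*, *Slc18a3*, *Slc5a7*) and 13 noradrenergic (*Th*, *Dbh*, *Slc6a2*).

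The 21 cholinergic lumbar neurons held 430 of the 840 *Calca* UMIs (51.2%). Their summed level was 213 CPM of *Calca*, with 76.4 CPM of *Calcb* and 169 of *Ramp1*. P4-like neurons were at 621 CPM of *Calca* in pelvic_2, of the same round, and at 234 in pelvic_1, of the other round. The 888 noradrenergic lumbar neurons were at 5.82, 2.35 and 79.2 CPM. The leading genes of the cholinergic neurons were *Vip*, *Calca*, *Slc18a3*, *Pdlim3*, *Sst* and *Shox2*. Of 7 sensory neuron markers 5 were at 0 in them, and the summed level of the list was 59.5 CPM against 48.4 in the other lumbar neurons. In the stellate ganglion 4 neurons were cholinergic, and 1 of them held all 8 *Calca* UMIs of that group.

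Both CGRP genes were lower in noradrenergic than in cholinergic pelvic neurons, and adrenomedullin was higher. UMIs were summed per library over 130 and 31 noradrenergic and 722 and 304 cholinergic neurons, sorted by the transmitter genes above. *Calca* was at 2.12 and 0.807 CPM in noradrenergic neurons and at 27.1 and 84.7 in cholinergic neurons. *Calcb* was at 5.39 and 1.88 CPM against 184 and 225. Glia of the same libraries were higher than the noradrenergic neurons, at 6.40 and 2.82 CPM of *Calca* and 39.5 and 4.23 of *Calcb*. Depth differed, at medians of 39615.5 and 117667 UMIs in noradrenergic neurons and 4126 and 11968 in glia. The part of background molecules was not tested. The noradrenergic values of both genes are therefore read neither as expression nor as its absence, and the sizes of the falls below are uncertain. *Adm* was at 8.08 and 13.5 CPM against 0.664 and 1.08. Of all genes 21.9% passed the test that follows. In edgeR's quasi-likelihood test with the library as block and Benjamini-Hochberg adjustment over 14093 genes, *Calca* fell by 5.02 on the log2 scale (SE 0.28, adjusted p = 3.37e-70), *Calcb* fell by 5.71 (SE 0.23, adjusted p = 4.57e-136) and *Adm* rose by 3.58 (SE 0.33, adjusted p = 3.86e-26). These errors are estimated mostly across genes. For *Calca* and *Calcb* they are smaller than the spread between the libraries. The log2 ratio in the libraries was -3.68 and -6.71 for *Calca* and -5.09 and -6.90 for *Calcb*. For *Adm* it was 3.61 and 3.63, closer together than the error. DESeq2 gave *Calca* an SE of 1.28 and an adjusted p of 0.00105. The fit without the block (edgeR) gave adjusted p-values of 0.0213 for *Calca*, 0.00520 for *Calcb* and 0.0124 for *Adm*. Without the P4-like neurons *Calca* fell by 3.61 (edgeR, adjusted p = 3.10e-29).

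Of the 6 members tested, 1 rose and 2 fell, where 9.88% of all genes were higher and 12% lower. The median log2 fold change was -0.63 over the 6 members and 0.00 over all genes. *Ramp1* (47.4 and 28.8 CPM against 42.2 and 46.8) had a log2 fold change of -0.24 (SE 0.16, adjusted p = 0.305) and *Ramp3* one of -0.27 (SE 0.20, adjusted p = 0.401) in the same edgeR fit. *Ramp2* did not pass either (log2 fold change -0.997, SE 0.44, edgeR adjusted p = 0.0907). *Calcrl* had too few molecules to be tested. The library is the replicate here, with 4 sums in all, and the P4-like neurons are all among the cholinergic ones.

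Other neuropeptides showed where the CGRP genes stand among the transmitters of these neurons. Of 10 genes known from neurons that also use CGRP (9 peptides and *Nos1*, the enzyme of nitric oxide), 9 fell and 1 rose in noradrenergic neurons, where 12% of all genes fell and 9.88% rose, with a median log2 fold change of -4.68 against 0.00 over all genes. *Vip* (vasoactive intestinal peptide) fell by 6.10, *Sst* (somatostatin) fell by 6.04, *Adcyap1* (the peptide PACAP) fell by 5.87 and *Gal* (galanin) fell by 2.19. The list was chosen with earlier results of these data known. Of its genes, *Vip*, *Sst*, *Cartpt*, *Penk* and *Grp* were among the 10 leading genes of cholinergic pelvic clusters. The counts over the list are therefore only a description. *Npy* (neuropeptide Y), which dominates in vasoconstrictor neurons, rose by 1.74 (edgeR, adjusted p = 8.71e-19). Within P4-like neurons *Npy* was at 3524 and 3218 CPM, *Sst* at 1493 and 2299, *Adcyap1* at 277 and 340, and *Vip* at 123 and 157. *Grp*, the leading peptide of P2-like neurons, was at 1.53 and 1.94 CPM there. *Calca* and *Calcb* thus stood beside a peptide set led by neuropeptide Y and somatostatin.

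Genes that process and store peptides were less one-sided. Of 10 (prohormone convertases, the amidating enzyme *Pam* and granins), 4 rose and 5 fell in noradrenergic neurons, among them *Pcsk2* by 3.06 upwards, *Scg2* by 2.87 upwards and *Chgb*, which fell by 1.42. Of 3 peptidases that can cleave CGRP or adrenomedullin, *Mme* (neprilysin) rose by 4.66 (edgeR, adjusted p = 1.08e-49) and was at 11.3 and 21.8 CPM in P3-like neurons, while the other 2 did not pass. Of 16 tested genes of receptor signalling 2 rose and 5 fell, where 9.88% and 12% of all genes did. Of the relatives of the family, *Ackr3*, a decoy receptor for adrenomedullin, fell by 4.39, and *Crcp*, a component of the CGRP receptor complex, rose by 0.46. *Iapp* (amylin) had 0 UMIs in every group of neurons and in the other classes read, and *Calcr* (the calcitonin receptor) was at 0.0269 CPM at most.

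*Adm*, the gene of adrenomedullin, was, among neurons, highest in noradrenergic ones and was also found in vessels and connective tissue. By ganglion the sympathetic neurons were highest: 24.6 CPM in lumbar (23.5 to 25.8), 17.8 in coeliac (15.9 to 19.9) and 15.9 in stellate neurons (15.1 to 16.8). The intervals of the coeliac and stellate values overlap, and that of the lumbar value stands apart. Coeliac and lumbar belong to the second round and stellate to the first. Sphenopalatine neurons were at 1.63 (1.35 to 1.94) and pelvic neurons at 1.75 and 2.35.

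Within the pelvic ganglion the *Adm* molecules of neurons were concentrated in P3-like neurons, at 8.17 (5.89 to 11.0) and 13.5 CPM (9.98 to 17.7). P4-like neurons were at 5.09 and 5.49 CPM, where the fibroblast marker sum was 77.3 and 145 CPM and its part was not tested, and the ratio of the types was 1.61 (0.806 to 3.20) and 2.45 (1.41 to 4.25). The first interval includes 1, so that the difference was not detectable in pelvic_1. P1-like and P2-like neurons lay between 0 and 0.925 CPM.

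In the other ganglia *Adm* was also read by transmitter. Between the sympathetic ganglia and the sphenopalatine ganglion, with 1 library each, the transmitter cannot be told apart from the ganglion. Within a ganglion the reading rests mainly on the 21 cholinergic lumbar neurons. Noradrenergic neurons were at 16.0 (stellate), 17.8 (coeliac) and 25.2 CPM (lumbar), cholinergic sphenopalatine neurons at 1.65, and 0 UMIs were found in the 21 cholinergic lumbar neurons. An *Adm* UMI was found in 409 of 920 lumbar neurons (44.5%), 37.0% of coeliac, 24.8% of stellate and 5.17% of sphenopalatine neurons, against 0.650% to 1.90% of glia. Median depths of these neurons were 70403, 56483, 26794 and 38250 UMIs, and glia were shallower. After thinning to 4000 UMIs the shares were 8.50%, 9.57%, 6.56% and 0.812% in the same order. In P3-like neurons an *Adm* UMI was found in 24 of 129 (18.6%) and 17 of 31 (54.8%), which thinning lowered to 3.10% and 6.45%.

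Outside neurons *Adm* was at 42.4 and 50.9 CPM in pelvic fibroblasts and at 14.8 to 47.1 in those of the other ganglia. Endothelial cells were at 14.6 to 32.2 CPM, with a mean of 23.8 ± 6.72 (SD, n = 6). Mural cells, the cells that wrap vessels, ranged from 0 to 16.8 CPM on few cells (23 to 147 per library). The level in endothelial cells was thus of the size of that in sympathetic neurons.

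*Calcrl*, the receptor itself, was a gene of endothelial cells. Its level there was 87.2 and 167 CPM in the pelvic libraries, 106 in stellate, 97.5 in sphenopalatine, 136 in coeliac and 135 in lumbar, a mean of 121 ± 29.8 (SD, n = 6). All 3 libraries of the second round were above all 3 of the first. Fibroblasts were at 12.0 to 23.2 CPM, mural cells at 4.86 to 48.5 and macrophages at 2.35 to 8.20. The 41 to 188 endothelial cells of each library other than lumbar, with 29, carry these values.

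Neurons held little *Calcrl*. Pelvic neurons were at 0.339 and 0.0828 CPM, stellate at 0.280 and coeliac at 0.393. P3-like neurons had 0 UMIs in both libraries, which, with 3 counts as the limit for a count of 0, allows a share of neurons with a UMI at this depth of up to 2.33% and 9.68%. P4-like neurons were at 0 and 0.323 CPM, and the 0 of 47 neurons in pelvic_1 allows up to 6.38%. The neurons richest in CGRP therefore had no receptor molecules that could be told from background at this depth.

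Sphenopalatine and lumbar neurons were the exceptions. Sphenopalatine neurons were at 3.22 CPM (2.83 to 3.66), with a UMI in 156 of 1857 (8.40%) against 0.130% of glia, and lumbar neurons at 1.66 CPM, with a UMI in 45 of 920 (4.89%) against 0.232% of glia. After thinning 1.25% of sphenopalatine neurons had one. In the lumbar ganglion 11 neurons had 5 UMIs or more, all of them noradrenergic, and in the sphenopalatine ganglion 1 did. The neurons of these ganglia held 44.9% and 32.6% of all *Calcrl* UMIs in the kept droplets of their library, against at most 6.16% in any other library. *Ramp1* was found in 71 of the 156 sphenopalatine and in 40 of the 45 lumbar neurons with *Calcrl*. Among all neurons of these ganglia it was found in 774 of 1857 (41.7%) and 657 of 920 (71.4%). Depth enters these counts, and a link between the genes was not tested.

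**Figure D3:**
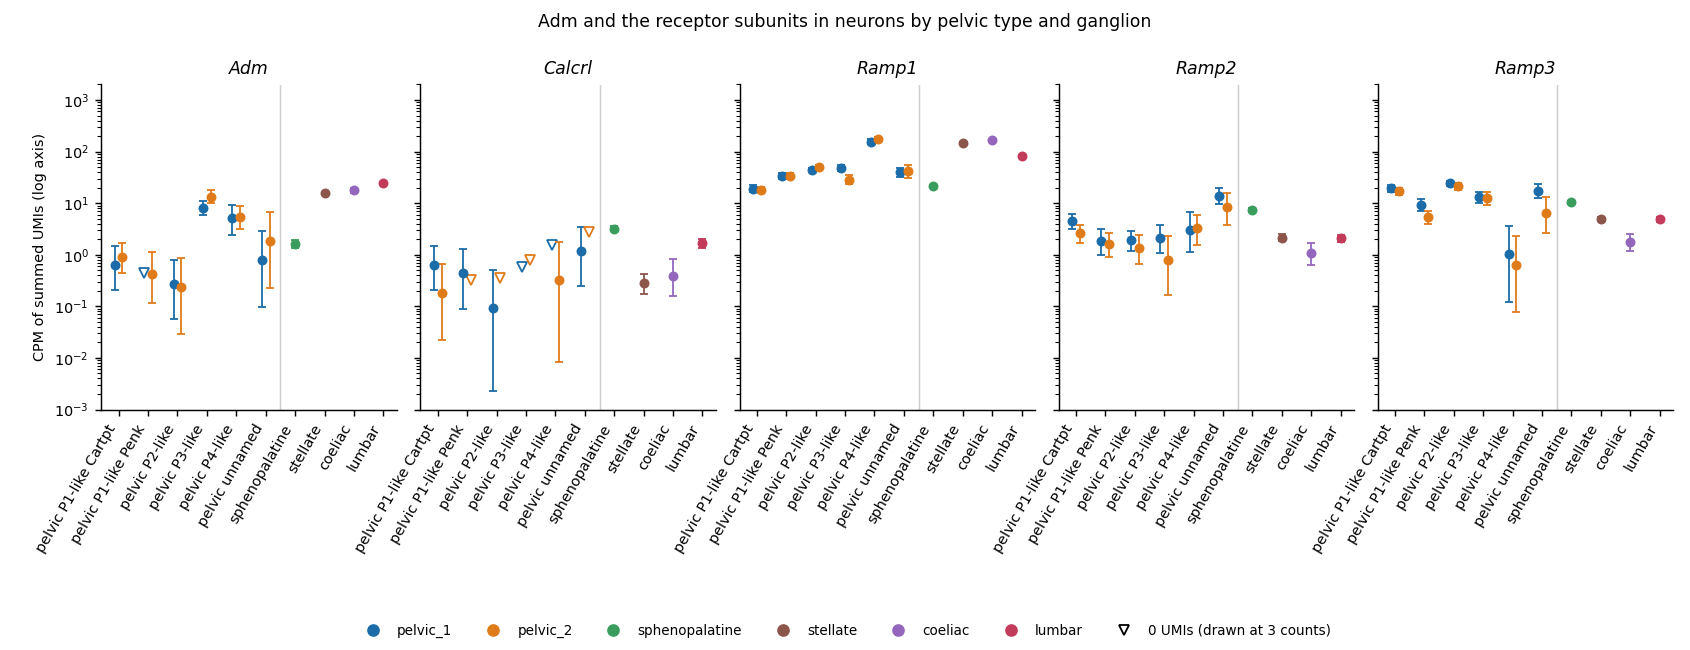
*Adm* and the receptor subunits in neurons, by pelvic type (left of the grey line) and ganglion (right). The vertical axis is the CPM of summed UMIs on a log scale, points are libraries, bars are exact 95% Poisson intervals and open triangles are groups with 0 UMIs drawn at 3 counts. *Ramp1* is at 18.1 CPM or more in every group, while *Calcrl* reaches above 1 CPM in sphenopalatine and lumbar neurons and in the unnamed pelvic cluster of pelvic_1.

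*Ramp1*, the subunit that makes the receptor a CGRP receptor, was the receptor gene with the highest level in neurons of each library. Coeliac neurons were at 169 CPM, stellate at 150, lumbar at 81.7, pelvic at 42.9 and 44.9 and sphenopalatine at 21.8. Within the first round the order was stellate, pelvic and sphenopalatine, and within the second coeliac, lumbar and pelvic, so that sympathetic neurons were above pelvic neurons in both. Leaving out 1 library at a time, the mean over the libraries lay between 68.2 and 97.6 CPM.

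Among pelvic neurons P4-like neurons were again highest for *Ramp1*, at 157 (140 to 175) and 179 CPM (164 to 194). They were at the level of stellate and coeliac neurons. P2-like neurons were at 44.1 and 49.9 CPM, P3-like at 47.9 and 28.8, P1-like Penk at 33.4 and 33.7, and P1-like Cartpt at 19.1 and 18.1. P4-like neurons stood above P2-like neurons by 3.55-fold and 3.58-fold, nearly the same in both libraries. The ranges of P2-like and P3-like neurons overlapped. A *Ramp1* UMI was found in 44 of 47 (93.6%) and 29 of 29 P4-like neurons, and in 47.8% and 48.3% after thinning.

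Outside neurons *Ramp1* was found in macrophages, fibroblasts and mural cells, at levels that differed between ganglia. Mural cells were at 93.5 and 68.9 CPM in the pelvic libraries, 92.3 in sphenopalatine, 39.6 in stellate, 14.3 in coeliac and 5.73 in lumbar. The 113 mural cells that held smooth muscle markers (*Acta2*, *Myh11*, *Tagln*, *Cnn1*) were at 171 CPM (145 to 199) over all libraries and the 310 without them at 11.7 (7.34 to 17.7), a split chosen after the values were seen. By library the cells with these markers (4 to 55) were at 243 and 113 CPM in the pelvic libraries, 302 in sphenopalatine, 163 in stellate, 44.4 in coeliac and 0 in lumbar. Macrophages were at 54.0 to 148 CPM. Fibroblasts ranged from 20.8 to 161 CPM and were above mural cells in the stellate (161), lumbar (85.9) and coeliac ganglia (43.7). Endothelial cells were at 0 to 13.9 CPM.

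*Ramp2*, the subunit of the main adrenomedullin receptor, was the most abundant member in endothelial cells. It was at 851 and 742 CPM in the pelvic libraries and at 620 to 784 in the others, a mean of 727 ± 83.7 (SD, n = 6). Fibroblasts were at 121 to 326 CPM and glia at 35.8 to 82.5. Neurons were at 1.07 to 7.47 CPM, highest in the sphenopalatine ganglion, and macrophages at no more than 1.36. The endothelial range did not overlap that of any other class.

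*Ramp3*, the subunit of the second adrenomedullin receptor, was by class highest in endothelial cells, though far below *Ramp2* there. It was uneven among pelvic neurons, and in P1-like Cartpt neurons it was at the level of *Ramp1*. Endothelial cells were at 20.3 and 21.9 CPM in the pelvic libraries, 18.0 in sphenopalatine, 43.3 in stellate, 32.3 in coeliac and 54.1 in lumbar. Mural cells were at 0 to 2.47 CPM and fibroblasts at 2.98 to 11.0. Neurons were at 16.8 and 12.8 CPM in the pelvic libraries, 10.5 in sphenopalatine and 1.74 to 4.98 in the sympathetic ganglia.

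The P4-like neurons were lowest for *Ramp3* and highest for *Ramp1*. They held 2 *Ramp3* UMIs in each library, 1.02 (0.123 to 3.67) and 0.646 CPM (0.0782 to 2.33). P2-like neurons were at 24.1 and 21.1 CPM, P1-like Cartpt at 19.4 and 17.0, P3-like at 13.0 and 12.4 and P1-like Penk at 9.26 and 5.41. The ratio of P2-like to P4-like neurons was 23.7 (5.89 to 95.2) and 32.7 (8.12 to 132), and the ranges of the other types lay above that of P4-like neurons.

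**Figure D4:**
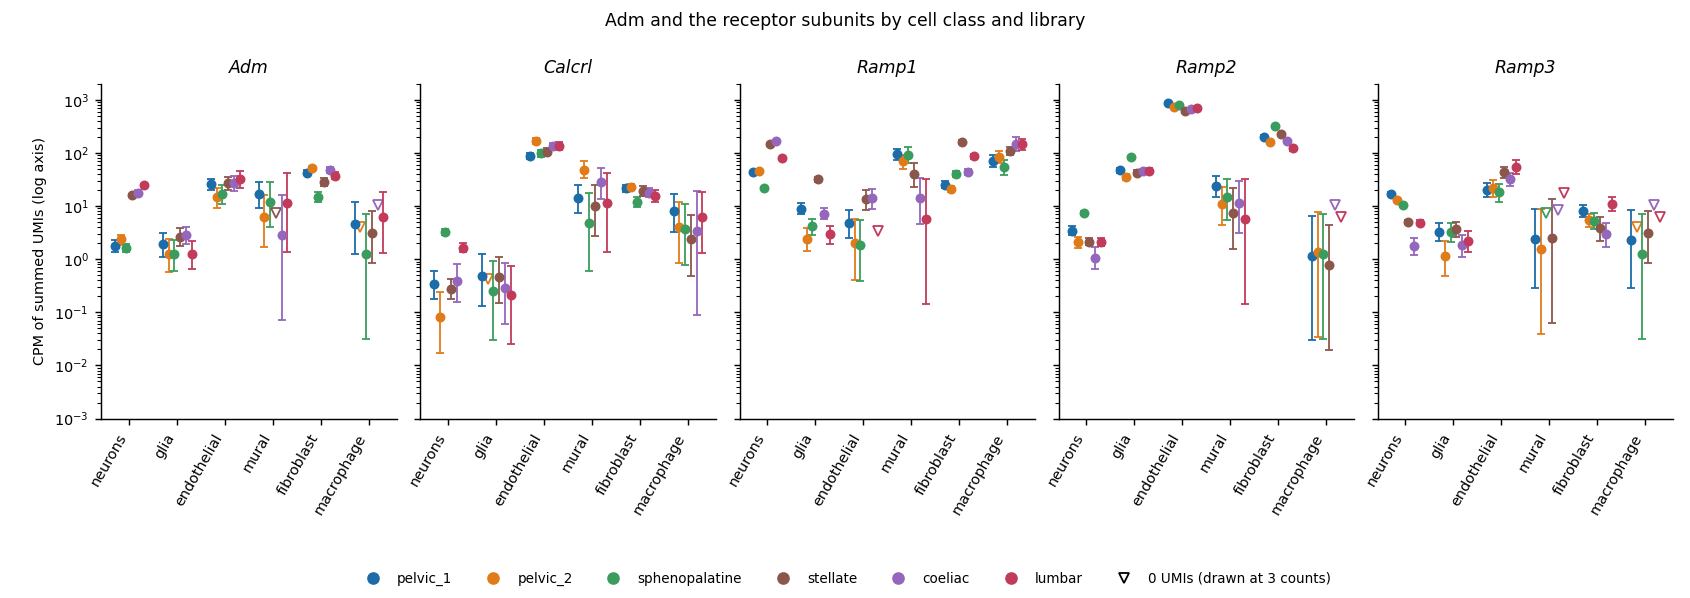
*Adm* and the receptor subunits by cell class. The vertical axis is the CPM of summed UMIs on a log scale, points are the 6 libraries, bars are exact 95% Poisson intervals and open triangles are groups with 0 UMIs drawn at 3 counts. *Calcrl* and *Ramp2* peak in endothelial cells of all 6 libraries, and *Ramp1* is low in them and high in neurons and macrophages.

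The classes were compared across the 6 libraries to ask which cells hold the ligands and which hold each receptor pair. UMIs were summed per library and class and fitted over 13733 genes with the library as block (edgeR's quasi-likelihood test, Benjamini-Hochberg adjustment). Classes differ in most genes, which the shares below show, so that passing the test is common. The median log2 fold change over all genes lay at -0.18 for endothelial cells and for glia against neurons.

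Endothelial cells held more receptor and, over the libraries together, less CGRP than neurons. For *Calca* the stellate and sphenopalatine libraries went the other way. Their endothelial cells were at 1.17 and 0.621 CPM, on 2 UMIs and 1 UMI, against 0.700 and 0.309 in neurons. *Ramp2* rose by 7.86 on the log2 scale (SE 0.25, adjusted p = 1.25e-21), *Calcrl* by 6.78 (SE 0.51, adjusted p = 4.12e-13), *Ramp3* by 1.79 (SE 0.38, adjusted p = 9.28e-05) and *Adm* by 1.32 (SE 0.45, adjusted p = 0.00977) in edgeR. *Ramp1* fell by 3.88 (SE 0.58, adjusted p = 5.50e-07), *Calcb* fell by 4.42 (SE 0.50, adjusted p = 2.49e-09) and *Calca* fell by 2.69 (SE 0.94, adjusted p = 0.0117). All 7 members passed, where 74.8% of all genes did (33% higher and 41.8% lower), and their median log2 fold change was 1.32. The calls of *Adm* and *Calca* were lost in some settings: without pelvic_1 the *Adm* value was 1.02 (edgeR, adjusted p = 0.0529), without sphenopalatine 0.99 (adjusted p = 0.0730), and without pelvic_2 the *Calca* value was -1.48 (adjusted p = 0.118).

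Glia held *Ramp2* with next to none of its partner *Calcrl*. *Ramp2* rose by 3.83 against neurons (edgeR, SE 0.21, adjusted p = 2.70e-16), while *Calcrl* in glia was at 0 to 0.483 CPM. Of the 7 members 1 rose, 5 fell and *Calca* did not pass (log2 fold change -1.26, edgeR adjusted p = 0.120), where 73.5% of all genes passed (31.1% higher and 42.4% lower), and the median over the members was -1.94. The lower *Calcrl* in glia (-1.93, edgeR adjusted p = 0.0191) rests on the sphenopalatine and lumbar neurons: without either library it did not pass, at -1.04 (adjusted p = 0.179) and -1.57 (adjusted p = 0.108).

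The RAMP differed between the layers of the vessel wall. Mural cells held more *Ramp1* than endothelial cells, by 3.50 on the log2 scale (edgeR, SE 0.65, adjusted p = 6.69e-05). In the coeliac ganglion the levels were close, at 14.3 and 13.9 CPM, and lumbar mural cells held 1 *Ramp1* UMI. Over all libraries mural cells with smooth muscle markers were at 171 CPM and those without at 11.7. They held less *Ramp2*, which fell by 5.88 (SE 0.27, edgeR adjusted p = 2.05e-16), less *Ramp3* (fell by 4.67, SE 0.76, adjusted p = 9.53e-06) and less *Calcrl* (fell by 2.59, SE 0.52, adjusted p = 0.000175). *Adm* and *Calcb* did not pass, and *Calca* had 0 UMIs in the mural cells of all 6 libraries. Of the members 1 rose and 3 fell, where 37.4% of all genes passed (16.1% higher and 21.2% lower). *Calcrl* and *Ramp1* were both found in mural cells, at 4.86 to 48.5 and 5.73 to 93.5 CPM. The lowest of these values, *Calcrl* in sphenopalatine and *Ramp1* in lumbar, rest on 2 UMIs and 1 UMI.

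By mean level fibroblasts stood between endothelial and mural cells for *Ramp2* and *Ramp3*. For *Calcrl* (18.2 against 19.6 CPM) and *Ramp1* (62.8 against 52.4) they were near mural cells. Against endothelial cells *Ramp1* rose by 3.31 (edgeR, SE 0.59, adjusted p = 2.04e-05), *Calcrl* fell by 2.62 (SE 0.42, adjusted p = 4.49e-06), *Ramp3* fell by 2.37 (SE 0.39, adjusted p = 7.24e-06) and *Ramp2* fell by 1.86 (SE 0.19, adjusted p = 7.59e-10). The 3 peptide genes did not pass. This is 1 higher and 3 lower of 7, where 48.7% of all genes passed (24.5% higher and 24.2% lower), with a median of -0.64 over the members and -0.02 over all genes.

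**Figure D5:**
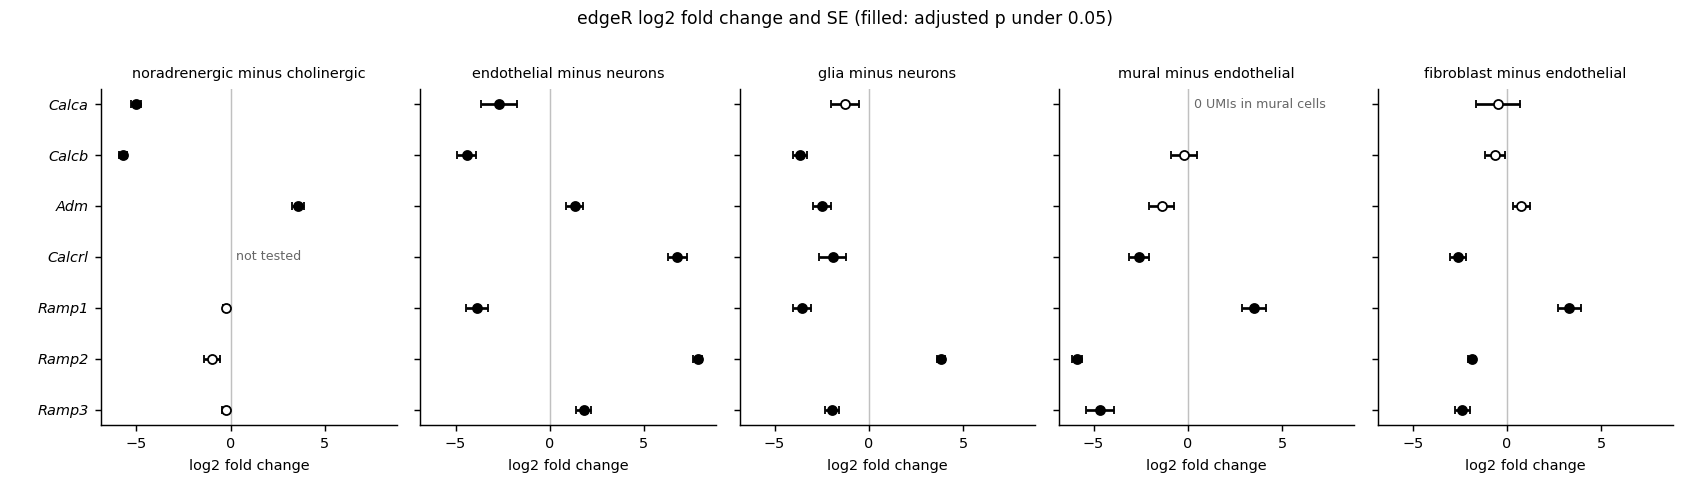
Log2 fold change of each member in the 5 contrasts, with the standard error as bar (edgeR, 4 sums in the first contrast and 6 libraries in the others). Filled points had an adjusted p under 0.05. *Ramp2* and *Calcrl* lie far right of 0 in endothelial cells against neurons and left of 0 in mural cells and fibroblasts against endothelial cells, and *Ramp1* lies on the opposite side in each of these.

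The pairs that make a working receptor were also counted in single cells. Of endothelial cells with *Calcrl*, 108 of 108 and 35 of 36 in the pelvic libraries also held *Ramp2*, as did 103 of 104 in stellate, 62 of 62 in sphenopalatine, 36 of 36 in coeliac and 24 of 24 in lumbar. *Ramp3* was found in 11 to 33 of these cells per library and *Ramp1* in 0 to 15. The RAMP found most often beside *Calcrl* in endothelial cells was thus that of the main adrenomedullin receptor. *Ramp2* was at 620 to 851 CPM in this class, so that a UMI of it is likely in most of the cells, with or without *Calcrl*. A link between the genes was not tested. Of fibroblasts with *Calcrl*, 98 of 124 (79.0%) and 112 of 120 also held *Ramp2* in the pelvic libraries. These are counts of detected molecules, and a missing UMI of a gene at a lower level, such as *Ramp3*, does not show that it is absent.

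Genes that act after the receptor were compared in the same fit. Of 17 tested signalling genes 4 rose in endothelial cells against neurons and 11 fell, and 74.8% of all genes passed (33% higher and 41.8% lower), so that the number that passed is near the background. Those that rose were *Adcy4*, an adenylyl cyclase (8.42, edgeR adjusted p = 2.97e-20), *Rapgef3*, the cyclic AMP sensor EPAC1 (8.22, adjusted p = 8.09e-18), *Creb1* (0.82) and *Adcy6* (0.62). *Gnas*, the G protein subunit that couples these receptors to cyclases, fell by 1.32. All 10 peptide processing genes and all 10 genes of the peptide list fell in endothelial cells. Among the peptidases *Ece1* rose by 3.90 and *Ide* fell by 1.03.

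Genes with the most similar distribution were found by correlation, as a description. Over 14 groups of neurons by library, *Calca* was most like *Rilpl1* (r = 0.958), *Pde1a* (0.938), *Fgf18* (0.926), *Ak5* (0.926) and *Enox2* (0.919) of 10056 genes, and *Calcb* was most like *Tcerg1l* (0.968), *Gas1* (0.968), *Gm9885* (0.967), *Ntrk3* (0.957) and *Slc9a9* (0.955). Over 36 groups of class and library, *Calcrl* was most like *Eng* (0.920), *Tmem204* (0.909), *BC028528* (0.908), *Adcy4* (0.903) and *Sult1a1* (0.898) of 13409 genes. *Eng* encodes endoglin, an endothelial surface protein. *Ramp1* had no partner as close, the highest being *Smim1* (0.797), *Nt5c2* (0.774), *Pik3cd* (0.741), *Reps2* (0.734) and *Gsto1* (0.730). The groups share libraries and depth, and the values say nothing of function.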

How the data were processed

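Ganglia were dissociated whole and sequenced with 10x 3′ chemistry, and the authors deposited 1 matrix of UMI counts per library. The counts are whole molecules per gene and droplet, made with Cell Ranger 6.0.1 on mm10 according to the submitters' processing notes. No other unit was used. Libraries were grouped by the ganglion in their labels. The driver of the Cre line is not reported here.

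Droplets with more than 1500 and fewer than 11000 genes and under 15% mitochondrial UMIs were kept. No doublet caller was run, and cells that passed the gates of several classes were left out. Counts were transformed with sctransform 0.4.2 (R 4.3.3). Neurons had a mean value above 3 for *Stmn2*, *Stmn3*, *Gap43* and *Tubb3* and a glial value below 1. The other classes were set by marker genes (at least 3 detected). Pelvic neurons were clustered with the Louvain method (python-igraph 0.11.9, resolution 0.3, 30 components of 2000 variable genes). The 7 members were left out of classes and clusters.

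Sums per library and class were tested with edgeR 4.0.16 (quasi-likelihood, Benjamini-Hochberg over all genes tested, threshold 0.05, classes of at least 10 cells), with the library as block because the classes of a library come from the same pool of animals and the same droplets. DESeq2 1.42.0 was an alternative. No test was made between clusters, nor between ganglia. The procedure was tested on simulated counts. Intervals were computed with scipy 1.17.1. Shares were computed again after thinning to 4000 UMIs. The labels call the pelvic libraries replicates. With 2 of them the fit of pelvic neurons has 1 residual degree of freedom. Its errors are therefore largely estimated across genes and not from the spread of a gene between the libraries.

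The genes named were the 7 members, fixed lists of relatives, peptide processing, signalling, breakdown and accompanying peptides, and the 5 genes most correlated (log2 of CPM + 1, at least 10 CPM in a group) with *Calca*, *Calcb*, *Calcrl* and *Ramp1*. Members and lists were chosen with earlier results of these data known. Sequences and gene positions come from GENCODE M21, which is on the build of the files, and protein sequences were not used here.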

Additional observations from a re-analysis of the deposited data

Results flagged for a closer look

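For 42 sets of 6 library values (7 genes in 6 classes) the highest or lowest library was compared with the rest, and 9 had a library that stood apart. The rule would flag about 1 in 20 sets of values drawn from 1 normal distribution. These libraries come from different ganglia, and sets with equal values or very few molecules could not be flagged. The number is therefore only a description. In neurons *Calca* of pelvic_2 stood apart at 76.4 CPM, with 23.4 in pelvic_1 as the next, and *Ramp2* of the sphenopalatine ganglion at 7.47 CPM, with 3.45 as the next. The sphenopalatine library was also apart for *Ramp2* in glia, at 82.5 CPM with 46.6 as the next, and the stellate library for *Ramp1* in glia, at 32.0 CPM with 8.94 as the next.

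The pelvic_1 library stood apart for CGRP genes in cells that are not neurons. *Calcb* was at 39.5 CPM in its glia, 21.9 in its endothelial cells, 18.0 in its mural cells and 9.53 in its fibroblasts, where the next library, pelvic_2, was at 4.23, 3.31, 3.13 and 3.05. *Calca* was at 5.68 CPM in its endothelial cells, with 1.99 as the next. Neurons of pelvic_1 held 157 CPM of *Calcb* and those of pelvic_2 202.

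Droplets that fitted no class also held members at levels above the classes, and no comparison used them. In 129 unassigned droplets with chromaffin cell markers *Adm* was at 295 CPM (267 to 325), above the highest class level of 50.9. Their leading genes were *Chgb*, *C2cd4b*, *C1ql1*, *Peg10*, *Cox4i2*, *Dlk1*, *Agtr2* and *Chga*. In the other unassigned droplets *Adm* was at 83.1 CPM and *Ramp1* at 170, the latter next to the highest class level of 169.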

How the results depend on the processing

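Of 191 alternative values for levels 179 moved by less than the spread (SD) between libraries. Values with 1 library left out are among these, and by construction they could not move further than that spread. The count does not hold *Calca* and *Calcb* in P4-like neurons, *Calcrl* and *Ramp2* in endothelial cells or *Ramp1* in neurons. Of 490 alternative fold changes 472 were counted as unchanged. For a fit this means the same direction and the same side of the threshold. Ratios within 1 pelvic library had no test. For a gene that had not passed, they were counted as unchanged when near the fitted value, whatever their direction. *Ramp1* in pelvic_1, which was higher in noradrenergic neurons, is such a case. The mean *Calcb* level of P4-like neurons, 952 CPM, was 543 with types set neuron by neuron from marker genes, 879 at resolution 0.6, 878 with a neuron threshold of 2.5 and 862 with the unnamed cluster put with the types its markers favour, the last 2 chosen after seeing the data. Thinning to 4000 UMIs lowered the mean share of P4-like neurons with *Calca* from 88.3% to 54.0%, with *Calcb* from 100% to 87.0% and with both from 88.3% to 53.2%.

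The classes of a library are paired by their pool. Without the replicate block 550 genes passed between noradrenergic and cholinergic neurons in place of 3089, and with DESeq2 1536 did. For mural against endothelial cells 2991 genes passed in the second round alone, in place of 5130. Among the fits, directions reversed for *Ramp1* between noradrenergic and cholinergic neurons without the P4-like neurons (0.15) and *Calca* in glia in the first round alone (0.28). They also did for *Calcb* in mural against endothelial cells with DESeq2 (0.55) and without the block (0.022). The last was *Calca* in fibroblasts against endothelial cells in the second round alone (0.49). None of these had passed the test. The call of *Adm* in endothelial cells was also lost without the block (0.98, edgeR adjusted p = 0.0832) and in the second round alone (0.72, adjusted p = 0.271), and that of *Calca* in the first round alone (-0.88, adjusted p = 0.485). *Calca* in glia passed without the block (-2.77), in the second round alone (-2.48) and without sphenopalatine (-1.75), and *Calcrl* in glia did not pass in either round alone. The causes were not tested.

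Leaving out 1 library at a time gave 234 to 621 CPM for *Calca* and 919 to 984 for *Calcb* in P4-like neurons, 76.6% to 100% for the share with *Calca*, 112 to 128 CPM for *Calcrl* and 702 to 749 for *Ramp2* in endothelial cells. Genes passing numbered 9805 to 10046 (endothelial cells against neurons), 9590 to 9761 (glia against neurons), 4239 to 4822 (mural against endothelial cells) and 6008 to 6225 (fibroblasts against endothelial cells). Leaving out droplets with shared barcodes, chosen after seeing the data, gave 10230, 9982, 5024 and 6616. The noradrenergic comparison could not be fitted with 1 pelvic library, in which the log2 ratio of *Calca* was -3.68 (pelvic_1) and -6.71 (pelvic_2). No paired analysis was possible because single libraries stand for the other ganglia, so that ganglia were not tested against each other. With cells of several gates kept, the P4 cluster met no name and gave no value. Depth limits the low genes most: *Calcrl* in neurons and *Ramp3* in P4-like neurons rest on few molecules.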

Other observations

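Droplets just below the neuron threshold, with a mean neuronal value between 2.5 and 3, were left out of the neurons. In pelvic_2 there were 17 of them, with 114 CPM of *Calca* and 598 of *Calcb*, and in pelvic_1 76, with 78.7 and 480. Among endothelial cells 9 held lymphatic markers. Their *Ramp2* level was 658 CPM and their *Calcrl* level 57.1, and they held 0 *Ramp3* UMIs. The group also held 48.9 CPM of *Calcb*. A single cell of pelvic_2 gave 172889 of the 367906 UMIs of the group, so that these levels rest in large part on 1 droplet.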
